A study of Mus musculus with 4 samples.

Results

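Helper and cytotoxic T cells of inguinal white adipose tissue (iWAT) were compared mouse by mouse. The nuclei came from whole iWAT profiled by single-nucleus ATAC-seq, in which the Tn5 transposase inserts adapters where chromatin is open, and the authors annotated each nucleus from its pattern of open chromatin. The nuclei they named *Cd4* and Cd8 were each summed per mouse, and mice with at least 10 nuclei of each kind were kept. This gave 8191 of the 32552 nuclei of the series, 3737 CD4 nuclei and 4454 CD8 nuclei, from 20 of 21 mice, hence 40 libraries of 1 mouse and 1 cluster. The mouse left out, day3CL replicate 2, had 4 CD4 and 9 CD8 nuclei. All mice were C57BL/6J males aged 8 weeks, with no transgene or deletion named in the labels. They were kept at 22 °C and taken before treatment (day0RT, 3 mice), after 1, 3 or 7 days in the cold (6.5 °C by the labels, 9 mice), or after 1, 3 or 7 days of CL-316,243 (CL), a selective agonist of the β3-adrenergic receptor, at 1 mg/kg (8 mice used).

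CD4 T cells recognise peptides on MHC class II molecules and mostly act as helper or regulatory cells, whereas CD8 T cells recognise peptides on MHC class I molecules and can kill their targets. Both arise in the thymus from cells that carry both coreceptors. In that choice the zinc finger protein ThPOK, encoded by *Zbtb7b*, holds the helper fate, and *Runx3* supports the cytotoxic fate, in which the *Cd4* gene is silenced and the *Cd8a* and *Cd8b1* genes remain expressed.

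Each entry of the deposited matrix is 1 where a nucleus has reads in a peak and 0 elsewhere. Summed over a library, the counts tell in how many nuclei a peak was open. A gene takes all peaks that touch its body or lie up to 2000 bases upstream. Levels are in CPM of a library's gene counts (for genes) or peak counts (for peaks), adjusted by edgeR's TMM factors. Differences are log2 fold changes, CD4 minus CD8, from a model with the mouse as a block and a prior count of 2. The prior count draws them toward 0 where counts are few. They can hence be smaller than the ratio of the levels or counts printed beside them. The SE printed with a difference is its size divided by the square root of its test's F statistic. It was not estimated directly by the model and is unsteady for differences near 0. The authors clustered these same nuclei on these same peaks. Adjusted p-values below weigh the size of a difference against its counts and its spread over the mice. They are hence not independent evidence that the clusters differ.

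The libraries held 16 to 349 nuclei (median 213) and 10452 to 617104 gene counts (median 210812). Day1CL replicate 3 stood apart, with 16 CD4 and 33 CD8 nuclei, the smallest library and a TMM factor of 1.47 in its CD4 library, and the values of *Zbtb7b*, *Runx3* and the CD4 share are also given without it. Of the member nuclei, 26.3% carried a barcode sequence that at least 1 other nucleus of the series carried too, and their removal is among the alternatives. Both clusters were open at *Cd3e*, a chain of the CD3 complex of the T cell receptor, with a log2 difference of 0.08 (SE 0.0784, edgeR quasi-likelihood adjusted p = 0.533). With every nucleus thinned to 500 counts, a count in a CD3 gene was found in 562 of 3115 CD4 and 644 of 3862 CD8 nuclei, against 400 of 10359 B cell nuclei, for which the median depth was 974 counts against 907 and 1035 (unthinned 32.6%, 34.7% and 9.94%). At the same depth *Cd8a* or *Cd8b1* had a count in 9.84% of CD8, 1.99% of CD4 and 0.0772% of B cell nuclei, and *Cd4* in 3.66% of CD4, 1.35% of CD8 and 0.0483% of B cell nuclei. Unthinned, the shares were 23.7%, 5.05% and 0.267% for *Cd8a* or *Cd8b1*, and 8.42%, 3.27% and 0.192% for *Cd4*.

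Sequences are shown for the Cd8 genes on chromosome 6 and for both starts of *Runx3* on chromosome 4, of which the distal one differed. They are given so that the elements named below can be read: the middle 300 bases of the 3 tested peaks between *Cd8b1* and *Cd8a*, the 250 bases before the *Cd8a* start, and the 250 bases before each of the 2 starts of *Runx3*. All are the forward strand of GRCm38 (mm10), 5′ to 3′. Intergenic peak A is at chr6:71342891-71343190, B at chr6:71353651-71353950 and C at chr6:71357558-71357857. The *Cd8a* promoter is at chr6:71373177-71373426. The *Runx3* distal promoter is at chr4:135120395-135120644 and the proximal one at chr4:135152295-135152544. Promoter positions are those of RefSeq entries, of which *Cd8a* had 1, *Runx3* 2 and *Zbtb7b* 2, while *Cd4* and *Cd8b1* had none. Capitals mark matches to 8 motifs searched on both strands: TGTGGTT for RUNX, CTTTGAT for TCF/LEF, AGATAA for GATA factors, AGGTGTGA for T-box factors, CCGGAAGT for ETS, TGANTCA for AP-1, CAGCTG for the E-box and GGGGCGGG for KLF/SP.
Intergenic peak A: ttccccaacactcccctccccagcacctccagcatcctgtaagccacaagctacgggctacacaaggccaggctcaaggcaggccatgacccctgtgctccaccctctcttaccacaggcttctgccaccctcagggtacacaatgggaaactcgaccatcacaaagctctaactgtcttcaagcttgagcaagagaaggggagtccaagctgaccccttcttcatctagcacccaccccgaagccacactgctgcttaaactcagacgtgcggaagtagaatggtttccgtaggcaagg
Intergenic peak B: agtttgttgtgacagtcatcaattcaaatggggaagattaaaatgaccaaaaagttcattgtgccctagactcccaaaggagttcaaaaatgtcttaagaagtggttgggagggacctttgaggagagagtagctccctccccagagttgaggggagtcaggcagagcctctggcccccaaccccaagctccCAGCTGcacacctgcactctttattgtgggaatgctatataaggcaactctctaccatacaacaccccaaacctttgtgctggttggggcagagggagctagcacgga
Intergenic peak C: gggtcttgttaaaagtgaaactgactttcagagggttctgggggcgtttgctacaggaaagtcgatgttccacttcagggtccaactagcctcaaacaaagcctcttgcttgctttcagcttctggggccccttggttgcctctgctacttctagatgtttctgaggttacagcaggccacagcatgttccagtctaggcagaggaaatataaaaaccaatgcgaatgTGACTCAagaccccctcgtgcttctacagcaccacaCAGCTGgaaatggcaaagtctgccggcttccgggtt
Cd8a promoter: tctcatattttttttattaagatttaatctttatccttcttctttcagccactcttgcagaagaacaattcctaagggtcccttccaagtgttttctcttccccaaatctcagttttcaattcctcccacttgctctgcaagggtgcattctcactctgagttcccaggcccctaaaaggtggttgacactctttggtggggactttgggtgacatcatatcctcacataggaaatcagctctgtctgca
Runx3 distal promoter: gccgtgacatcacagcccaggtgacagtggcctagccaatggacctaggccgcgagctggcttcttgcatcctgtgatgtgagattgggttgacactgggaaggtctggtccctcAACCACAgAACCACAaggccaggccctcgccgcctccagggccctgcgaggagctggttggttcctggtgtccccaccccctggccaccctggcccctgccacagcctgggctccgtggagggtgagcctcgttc
Runx3 proximal promoter: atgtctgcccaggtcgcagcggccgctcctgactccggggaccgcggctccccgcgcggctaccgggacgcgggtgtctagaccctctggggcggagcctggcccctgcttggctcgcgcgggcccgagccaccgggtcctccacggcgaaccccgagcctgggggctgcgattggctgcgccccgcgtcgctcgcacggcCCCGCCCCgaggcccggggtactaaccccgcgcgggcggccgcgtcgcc

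The distal *Runx3* promoter held 2 RUNX matches, from its bases 116 and 124, read on the reverse strand and 1 base apart. A RUNX match was present in 4.40% of 32851 RefSeq promoters of the same length. The proximal promoter held 1 KLF/SP match at base 202, a motif present in 15.0% of those promoters. Peak B held an E-box at base 193, and peak C an AP-1 match at base 229 and an E-box at base 265. Among the middle 300 bases of all 7202 tested peaks, 16.3% held an E-box and 4.54% an AP-1 match. Peak A and the *Cd8a* promoter held none of the 8, which says only that these letters are not in those windows.

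Across genes, the comparison asked how far the open chromatin of the 2 lineages differs within the same mouse. Of 7904 genes with enough counts to test, 1501 (19%) passed an adjusted p of 0.05, with 633 (8.01%) higher in CD4 and 868 (11%) higher in CD8 nuclei, and 2276 had an unadjusted p under 0.05. Most differences were small, with a median size of 0.32 among the genes higher in CD4 and 0.35 among those higher in CD8. With differences drawn toward 0 at few counts, those over 2-fold were 11 genes higher in CD4 and 52 higher in CD8. The direction was the same in all 20 mice for 28 genes higher in CD4 and 101 higher in CD8. The CD4 and CD8 libraries did not overlap at all for 31 genes (0.392% of those tested), 6 higher in CD4 and 25 in CD8. Leaving out day1CL replicate 3 gave 1514 called genes. A gene could pass the count filter through 1 cluster alone: 645 tested genes had a mean above the filter level of 47.4 CPM in only 1 cluster, and 216 of the 1501 called genes were among them, including *Cd4*, *Cd8a* and *Cd8b1*. For such genes a difference was partly built into the choice of what was tested.

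**Figure D1:**
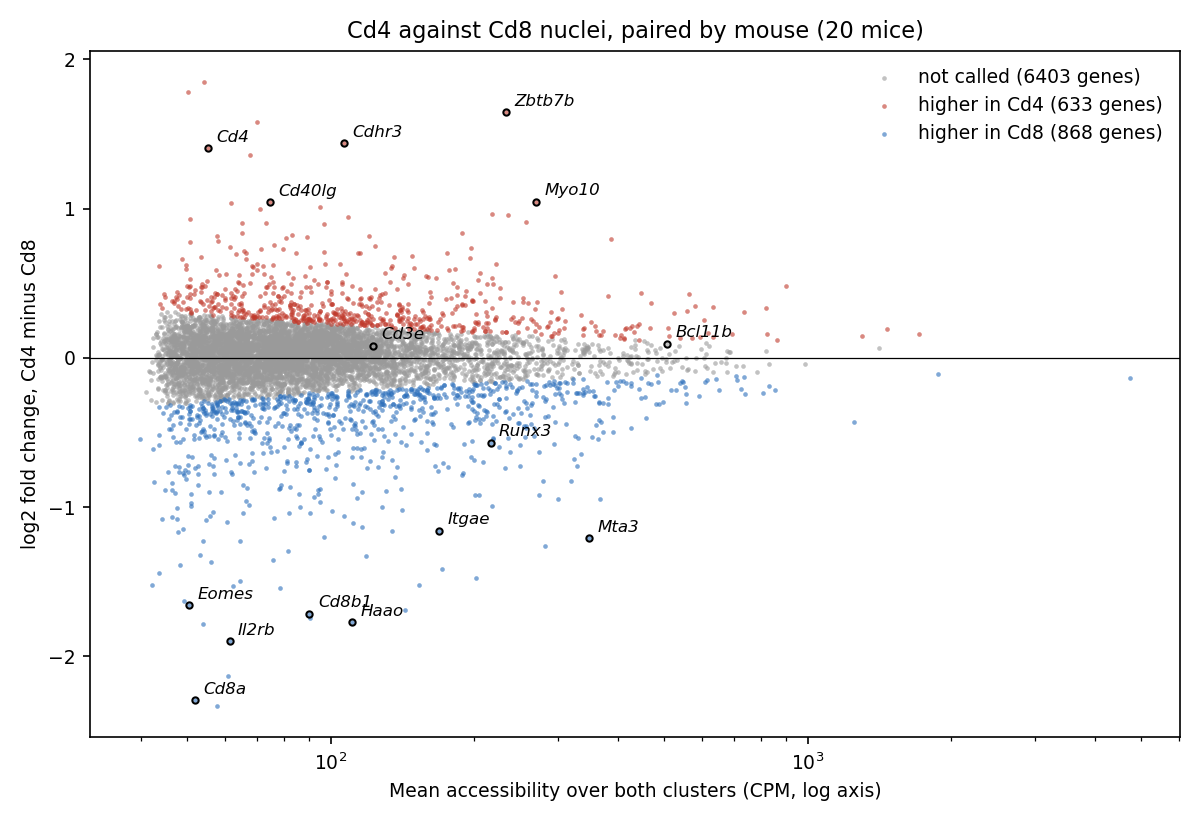
Difference between CD4 and CD8 nuclei (vertical axis, log2 fold change, CD4 minus CD8) against mean accessibility over both clusters (horizontal axis, CPM, log axis), 1 point per tested gene. The 633 red and 868 blue points passed the test in each direction, and *Zbtb7b*, *Cd4* and *Cdhr3* lie among the upper points and *Cd8a*, *Il2rb*, *Haao* and *Cd8b1* among the lower ones.

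The coreceptor genes, whose peaks were among those clustered, are given as a description of the clusters. *Cd4* (ENSMUSG00000023274, chr6:124864692-124888221, minus strand), the MHC class II coreceptor, had 49.1 CPM in its lowest CD4 library, a median of 80.0 and a highest of 122 CPM. In the CD8 libraries it had 10.4, 28.3 and 45.0 CPM for the lowest, the median and the highest. The groups did not overlap, and the difference was 1.41 (SE 0.115, edgeR adjusted p = 5.2e-32, higher in CD4 in 20 of 20 mice). *Cd8a*, the alpha chain of the CD8 coreceptor, ran the other way, from 0 through a median of 12.9 to 31.7 CPM in CD4 libraries and from 62.6 through 90.9 to 128 CPM in CD8 libraries. Its groups did not overlap either (−2.30, SE 0.129, edgeR adjusted p = 1.17e-66, higher in CD8 in 20 of 20 mice). *Cd8b1*, the beta chain, was also higher in CD8 in every mouse, but its libraries overlapped: the CD4 libraries reached 89.6 CPM and the lowest CD8 library had 67.6 (−1.71, SE 0.0991, adjusted p = 7.5e-62). Both extremes came from small libraries, where very few counts make such values. They were day3C replicate 1, with 25 CD4 nuclei and 32745 gene counts, and day1CL replicate 3, with 33 CD8 nuclei and 28675. The start of *Cd8b1* lies in a peak that also counts for *Smyd1*. On average over mice, neither coreceptor was at 0 in the other cluster, though *Cd8a* was at 0 in some CD4 libraries. CD8 nuclei had 27.3 ± 8.31 CPM at *Cd4* (SD, n = 20), and CD4 nuclei 12.3 ± 8.53 CPM at *Cd8a* and 42.0 ± 19.5 CPM at *Cd8b1* (SD, n = 20).

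**Figure D2:**
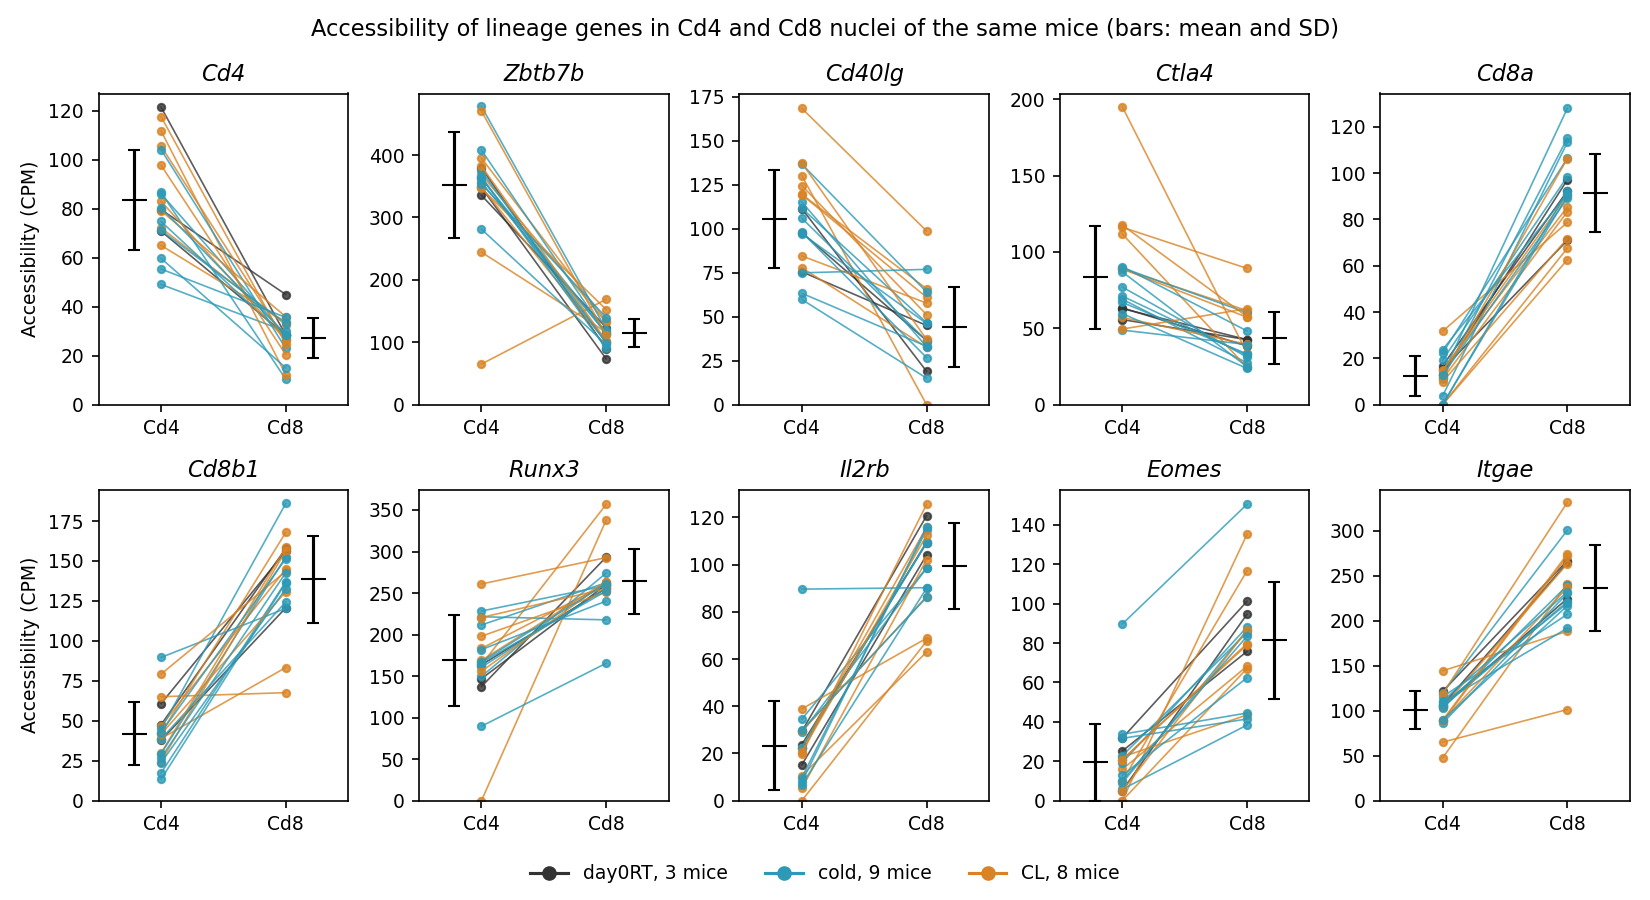
Accessibility of 10 lineage genes (vertical axes, CPM) in the CD4 and CD8 libraries of each mouse, joined by a line and coloured by arm, with mean and SD over 20 mice. Lines for *Cd4*, *Zbtb7b*, *Cd40lg* and *Ctla4* fall from CD4 to CD8 in 20, 19, 19 and 19 mice, and those of the 6 other genes rise in 19 or 20 of 20.

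The lineage factors differed most at *Zbtb7b*, encoding ThPOK, the factor of the helper fate. It had 65.0, 363 and 478 CPM in the lowest, median and highest CD4 library and 73.4, 114 and 169 CPM in CD8. The single overlap came from day1CL replicate 3, the only mouse with the reverse order (65.0 against 169 CPM). The CD4 library of that mouse held 16 nuclei and 10452 gene counts, so its 65.0 CPM rest on very few counts. The difference was 1.65 (SE 0.0643, edgeR adjusted p = 4.25e-135) and also 1.65 without that mouse. *Runx3*, the factor of the cytotoxic fate, was higher in CD8 by less. It had 0, 167 and 261 CPM in CD4 and 165, 261 and 357 CPM in CD8, with overlap, and was higher in CD8 in 19 of 20 mice (−0.57, SE 0.0633, edgeR adjusted p = 2.25e-17, and −0.57 without day1CL replicate 3, whose CD4 library was the one at 0). Of the 24 listed factors of the CD4 or CD8 choice, 23 were tested, 5 were higher in CD4 and 4 higher in CD8, beside 8.01% and 11% of all genes. The other 14 were not called, and the median was 0.03 beside 0.02 over all genes. Higher in CD8 beside *Runx3* were *Runx2* (−0.82), another RUNX factor, the E protein *Tcf12* (−0.70) and the Ikaros family member *Ikzf3* (−0.14). Higher in CD4 beside *Zbtb7b* were *Patz1* (0.28), *Runx1* (0.14), *Tox* (0.13) and *Ets1* (0.12). *Patz1* was not called under 4 alternatives, among them without the day0RT mice (adjusted p = 0.148), and *Ets1* under 4.

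Peak by peak, every peak at and between *Cd8b1* and *Cd8a* had fewer counts in CD4 than in CD8 nuclei. Across all peaks, 7202 were tested and 749 (10.4%) passed, 257 (3.57%) higher in CD4 and 492 (6.83%) higher in CD8, with 1518 at an unadjusted p under 0.05. Scaled by library totals alone, 435 were higher in CD4 and 386 in CD8. Only 9 peaks (0.125%) had libraries that did not overlap, all higher in CD8. As with genes, a peak could pass the filter through 1 cluster: 1085 tested and 341 called peaks had a mean above the filter level of 41.9 CPM in only 1 cluster. This held for 8 of the 9 tested peaks of *Cd8a*, *Cd8b1*, *Zbtb7b* and *Runx3* described here, all but the *Runx3* exon peak, so their differences were partly built into the choice of what was tested. Of the 11 peaks between *Cd8b1* and *Cd8a*, 3 were tested. Peak A (chr6:71342734-71343346, 33 counts in CD4 and 479 in CD8) had 0, 5.95 and 19.4 CPM in the lowest, median and highest CD4 library against 51.0, 77.6 and 127 CPM in CD8. The groups did not overlap (−2.51, SE 0.135, edgeR adjusted p = 2.72e-70). Peak B (chr6:71353490-71354111, 19 and 400 counts) differed by −2.63 and peak C (chr6:71357490-71357925, 28 and 387 counts) by −2.38 on the log2 scale. With so few counts in CD4, the prior count drew the values of A, B and C toward 0. At B the libraries did not overlap, and at C, where 1 CD8 library was at 0, they did, with 19 of 20 mice higher in CD8. The peak over the *Cd8a* start (chr6:71373220-71373707, 22 and 342 counts) differed by −2.35 and that over the *Cd8b1* start (chr6:71322229-71323093, 108 and 453 counts) by −1.39. The remaining 8 intergenic peaks fell under the count filter and are given as counts only, for example 28 in CD4 and 331 in CD8 at chr6:71341170-71341611, 12 and 264 at chr6:71369357-71369863, and 2 and 69 at chr6:71364209-71364525.

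At *Zbtb7b* all 11 peaks had a higher pooled CPM, that is counts summed over all libraries, in CD4. The 2 tested were the start peak (chr3:89393387-89394861, 327 and 138 counts, 1.42, SE 0.116, edgeR adjusted p = 2.75e-31) and an exon peak inside the gene (chr3:89386932-89389501, 431 and 204 counts, 1.33, SE 0.1, adjusted p = 1.46e-34). The peaks inside the gene that were too thin to test varied, from 107 against 16 counts in the intron at chr3:89382070-89382400 to 99 against 53 in the exon at chr3:89378195-89379316. Adipocytes and B cells, which belong to neither lineage, were open at *Zbtb7b* too. On a scale without TMM factors, *Zbtb7b* had a mean of 351 ± 80.0 CPM in CD4 nuclei, 113 ± 23.4 in CD8 nuclei (SD, n = 20), 248 ± 22.4 in B cells and 335 ± 43.3 in adipocytes (SD, n = 21). CD8 nuclei were the lowest of the 4.

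*Runx3* differed at 1 of its starts. The peak over the distal start (chr4:135120048-135120794, whose promoter is printed above with its 2 RUNX matches) had 0, 23.3 and 39.0 CPM in CD4 libraries against 43.7, 80.9 and 177 CPM in CD8 libraries. These groups did not overlap, and the difference was −1.52 (SE 0.112, edgeR adjusted p = 1.55e-36, higher in CD8 in 20 of 20 mice). At the proximal start the peak was too thin to test, with 87 counts in CD4 and 143 in CD8, or 19.4 against 22.7 pooled CPM. The exon peak just after it (chr4:135152844-135154557, 252 and 325 counts) was tested and differed by 0.06 (SE 0.104, edgeR adjusted p = 0.817), higher in CD4 in 13 of 20 mice, with a sign that turned under 2 alternatives. The gene-wide value of −0.57 sums over both starts, and taking peaks near the distal start alone gave −1.53.

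*Cd4* itself had 4 peaks, none with enough counts to test alone. The peak over its start (chr6:124888017-124888384) held 81 counts in CD4 and 10 in CD8, and an intron peak (chr6:124885130-124885725) 174 and 36. Another, at chr6:124885902-124886455, held 85 and 103, which is 19.0 against 16.3 pooled CPM, so the gene's peaks were not all of 1 kind. The last held 5 and 2 counts.

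**Figure D3:**
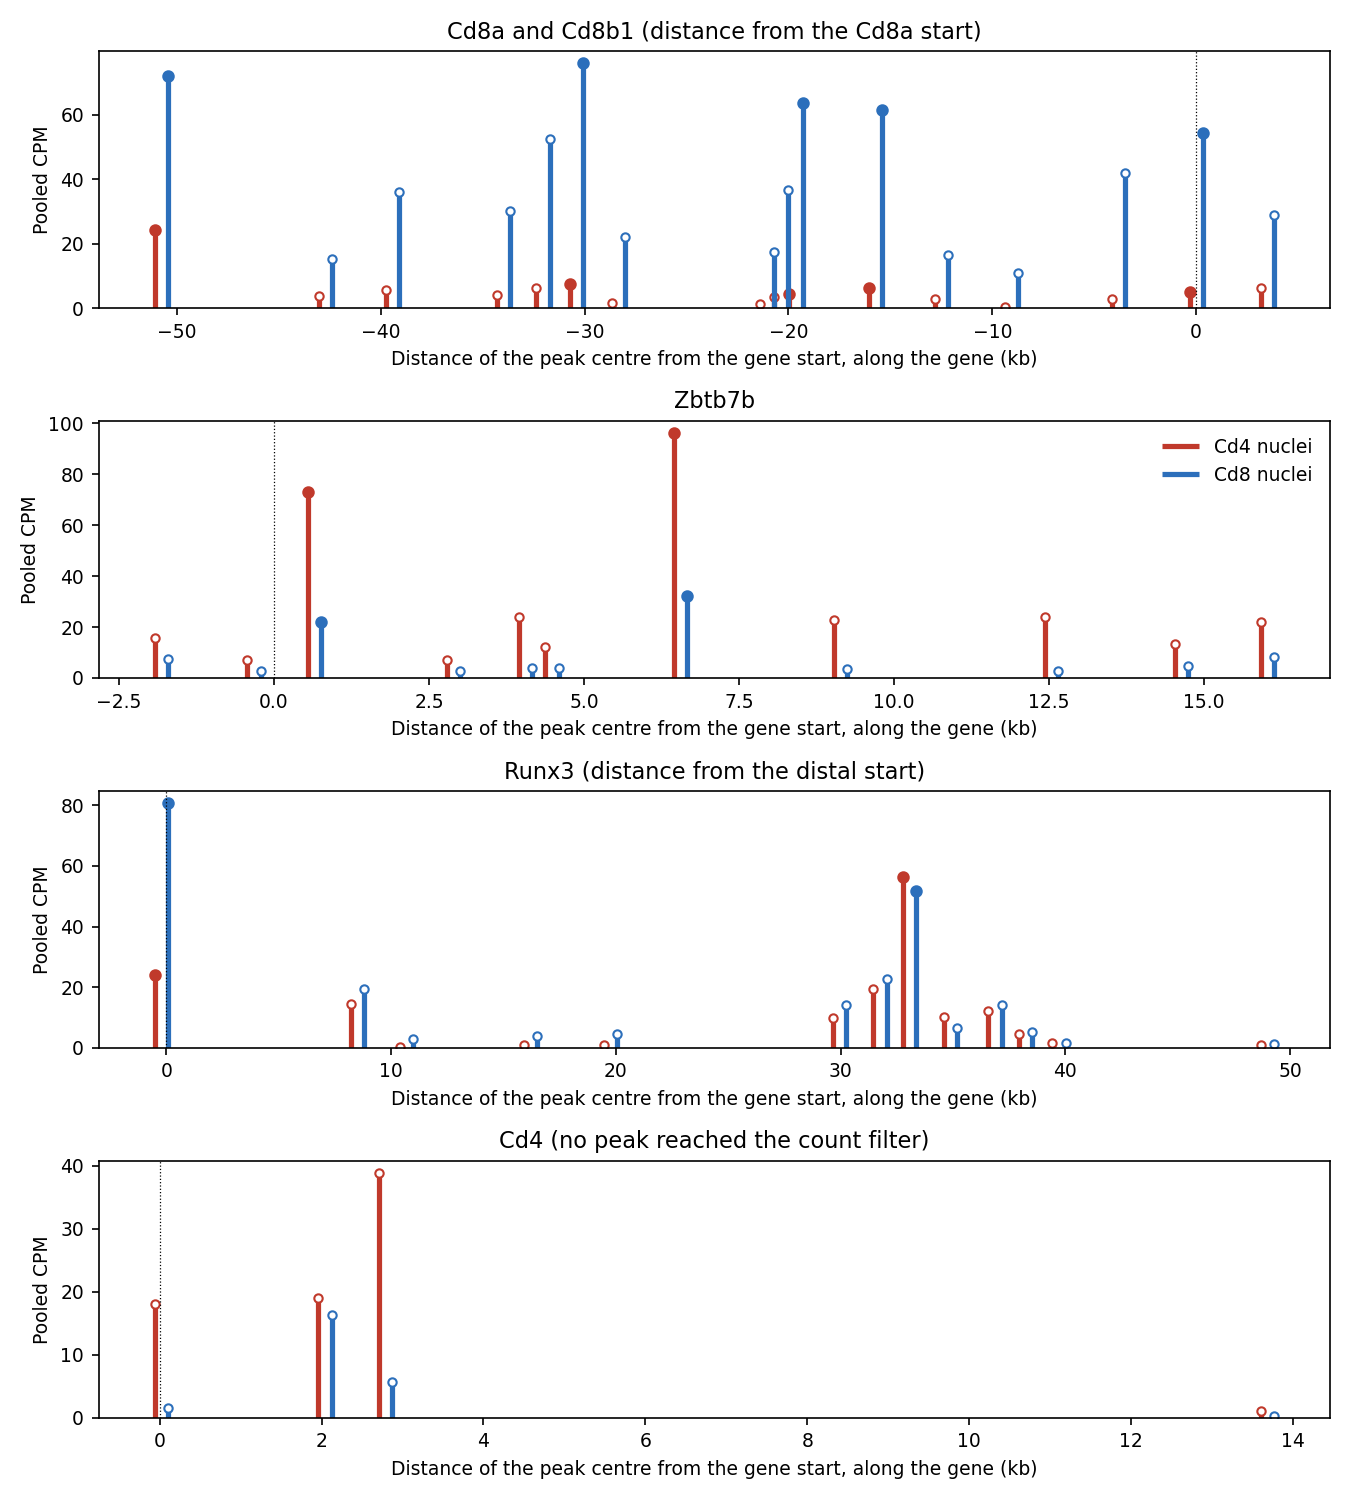
Pooled CPM (vertical axes) of each peak at the Cd8 genes, *Zbtb7b*, *Runx3* and *Cd4* in CD4 nuclei (red) and CD8 nuclei (blue) against distance from the gene start (horizontal axes, kb), the 2 colours drawn side by side around the peak centre. Filled points are peaks that were tested and open points those under the count filter. CD8 stems stand above CD4 stems along the whole Cd8 locus, with peak A at 7.37 against 76.0 pooled CPM, the reverse holds at all *Zbtb7b* peaks, and at *Runx3* the stems are apart at the distal start and close 33 kb on.

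The 12 genes of largest change in each direction were taken among called genes that averaged 20 or more counts a library and kept 1 direction in 90% of mice or more. In CD4, after *Zbtb7b*, came *Cdhr3* (1.44), a cadherin family gene, with 160 ± 36.3 CPM in CD4 against 53.1 ± 13.3 in CD8 (SD, n = 20), and *Myo10* (1.05), an unconventional myosin, with 368 ± 51.7 against 170 ± 34.6 CPM. Neither gene's libraries overlapped. Then came *Cd200r3* (1.01), *Chn2* (0.97), the sialyltransferase *St8sia6* (0.96), *Fanci* (0.95), the integrin chain *Itgb3* (0.91), the lipid acyltransferase *Lpcat1* (0.90), *Rsu1* (0.83), *Galnt9* (0.81) and the TGF-beta co-receptor *Tgfbr3* (0.80). Larger still but thinner in counts, and picked out after their values were seen, were *Chdh* (1.85), *Fstl4* (1.78) and *Pdlim4* (1.58), each higher in CD4 in 20 of 20 mice. Genes so thin in counts can pass the filter through the cluster where they are higher. Their differences, and the even direction over mice, may hence be partly built into the choice of what was tested. Taken over peaks near the gene start alone, *Rsu1* was not called (0.13).

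In CD8 the list was led by *Haao*, an enzyme of tryptophan breakdown, with 0, 43.3 and 80.0 CPM in the lowest, median and highest CD4 library and 135, 174 and 219 CPM in CD8. The libraries did not overlap (−1.77, SE 0.0912, edgeR adjusted p = 1.16e-78). Its neighbour *Mta3* (chr17:83706163-83821516, *Haao* at chr17:83831156-83847963), a chromatin remodelling subunit, was higher in CD8 as well, at 212 ± 46.8 against 485 ± 52.6 CPM (SD, n = 20; −1.21), again with no overlap. Both genes were open in B cells, at 355 and 500 CPM without TMM factors. Summed B cell markers had a median of 555 CPM in CD4 and 488 CPM in CD8 libraries. The share of nuclei with a count in 1 or more of 6 B cell genes had a median of 21.0% in CD4 and 25.4% in CD8. It was higher in CD8 in 15 of 20 mice. These nuclei were not thinned, and CD8 nuclei were deeper, with a median of 1035.5 counts against 907 in CD4. The part of B cells and of depth in these values was not tested. Next were *Nmnat2* (−1.74), an enzyme of NAD synthesis, *Cd8b1*, *Bend4* (−1.69), the kinase *Lrrk1* (−1.52), *Fyco1* (−1.48), whose peaks are shared with the chemokine receptors *Cxcr6* and *Xcr1*, *Cxxc5* (−1.41), *Frmd4a* (−1.32), *Racgap1* (−1.29), and the neighbours *Dnajc15* (−1.26) and *Epsti1* (−1.20). *Bend4*, *Lrrk1*, *Fyco1*, *Cxxc5*, *Frmd4a*, *Racgap1* and *Epsti1* had libraries that did not overlap. *Haao*, *Nmnat2*, *Cd8b1* and *Racgap1* had a mean above the filter level of 47.4 CPM in CD8 only. The differences of these genes were hence partly built into the choice of what was tested. *Myo1f* (−2.33) and *Gas7* (−2.13) were larger still with fewer counts and were also picked out after their values were seen. With so few counts they too can pass the filter through CD8 alone, so the same limit may hold for them.

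Genes of the T cell receptor and its signalling had small differences. Of 30 listed, 27 were tested, 2 were higher in CD4 (8.01% over all genes), 5 higher in CD8 (11% over all genes) and 20 not called, with a median of −0.01. Among those higher in CD8 were the phosphatase *Ptpn22* (−0.29), *Themis* (−0.25), the kinase *Fyn* (−0.21) and *Prkch* (−0.19), while *Prkcq* (0.16) and *Cd5* (0.22) were higher in CD4. Taken over peaks near the gene start alone, *Ptpn22*, *Fyn* and *Prkch* were not called.

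Among tested cytotoxic and effector genes more were higher in CD8 than in CD4. Over all genes 11% were higher in CD8 and 8.01% in CD4. Of 19 cytotoxic effectors only 5 were tested: *Crtam* (−0.56), the pore protein perforin *Prf1* (−0.55), the cathepsin inhibitor *Cst7* (−0.50) and the granule proteoglycan *Srgn* (−0.23) were higher in CD8, and *Tnf* (0.22) was not called. *Srgn* was not called under 2 alternatives. Granzymes A and B, *Gzma* and *Gzmb*, were under the filter. Of 15 CD8 effector and memory factors 9 were tested, 6 higher in CD8, 1, *Prdm1* (0.18), in CD4, and 2, *Cd44* (0.08) and *Itga4* (0.0005), not called. *Il2rb*, the beta chain of the IL-2 and IL-15 receptors, had 0, 22.3 and 89.6 CPM in CD4 and 63.0, 103 and 126 CPM in CD8 (−1.90, SE 0.118, edgeR adjusted p = 4.52e-54, higher in CD8 in 20 of 20 mice). The T-box factor *Eomes* differed by −1.66, *Hopx* by −1.23 and the integrin chain *Itgae*, CD103, by −1.16. *Zeb2* (−0.45) and *Itgb1* (−0.43) were lower in size, and 5 of the 9 tested, including *Il2rb*, *Eomes* and *Hopx*, had a mean above the filter level in CD8 only. The highest CD4 libraries of *Il2rb* and *Eomes*, both at 89.6 CPM, were those of 1 mouse, day3C replicate 1, with 25 CD4 nuclei.

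Among 15 NK-type receptors 6 were tested and 4 were higher in CD8 (11% over all genes): *Cd160* (−1.32), *Klrd1* (−1.22), encoding CD94, *Crtam*, and *Cd226* (−0.54). *Cd160* and *Klrd1* had a mean above the filter level in CD8 only. Summed over 12 NK and innate lymphoid markers with a peak, CD4 libraries ran from 96.1 to 336 CPM and CD8 libraries from 204 to 421 CPM, higher in CD8 in 20 of 20 mice. The sum includes *Eomes*, with a mean of 19.6 CPM in CD4 and 80.3 CPM in CD8 libraries without TMM factors. Of the 14 listed, 2 were tested, *Eomes* as above and *Zbtb16* (−0.27, adjusted p = 0.0667). No marker with a peak was at 0. The part that NK or innate lymphoid nuclei among the CD8 nuclei could have in these values was not tested.

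Helper genes were less uniform. Of 26 listed 10 were tested, with 3 higher in CD4 (8.01% over all genes), 1 higher in CD8 (11% over all genes) and 6 not called, and a median of −0.02. *Cd40lg*, through which helper cells activate B cells and myeloid cells, had 59.8, 109 and 168 CPM in CD4 and 0, 41.0 and 98.7 CPM in CD8 (1.05, SE 0.0991, edgeR adjusted p = 3.06e-23, 19 of 20 mice), and its mean was above the filter level in CD4 only. The other 2 were *St8sia1* (0.30) and *Il6ra* (0.20), and the gene higher in CD8 was *Tnfsf8* (−0.22). *St8sia1* was not called under 2 alternatives and *Tnfsf8* under 5. Of 15 regulatory T cell genes 9 were tested, and they split: *Ctla4* (0.69), *Izumo1r* (0.47), *Il2ra* (0.36) and *Foxp3* (0.30) were higher in CD4, and *Ikzf2* (−0.94), *Nt5e* (−0.93) and *Tnfrsf9* (−0.35) higher in CD8. *Ctla4* and *Izumo1r*, like *Il12rb1* and *Cxcr6* among cytokine and chemokine receptors, had a mean above the filter level in 1 cluster only. *Foxp3*, the master factor of regulatory T cells, was at 127 CPM in CD4 against 92.4 CPM in CD8. The third T cell cluster of the authors, 1610 nuclei, had 192 ± 64.0 CPM at *Ctla4* and 149 ± 44.9 at *Foxp3* (SD, n = 20) without TMM factors, beside 87.5 and 130 CPM in CD4 and 42.8 and 90.9 CPM in CD8.

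**Figure D4:**
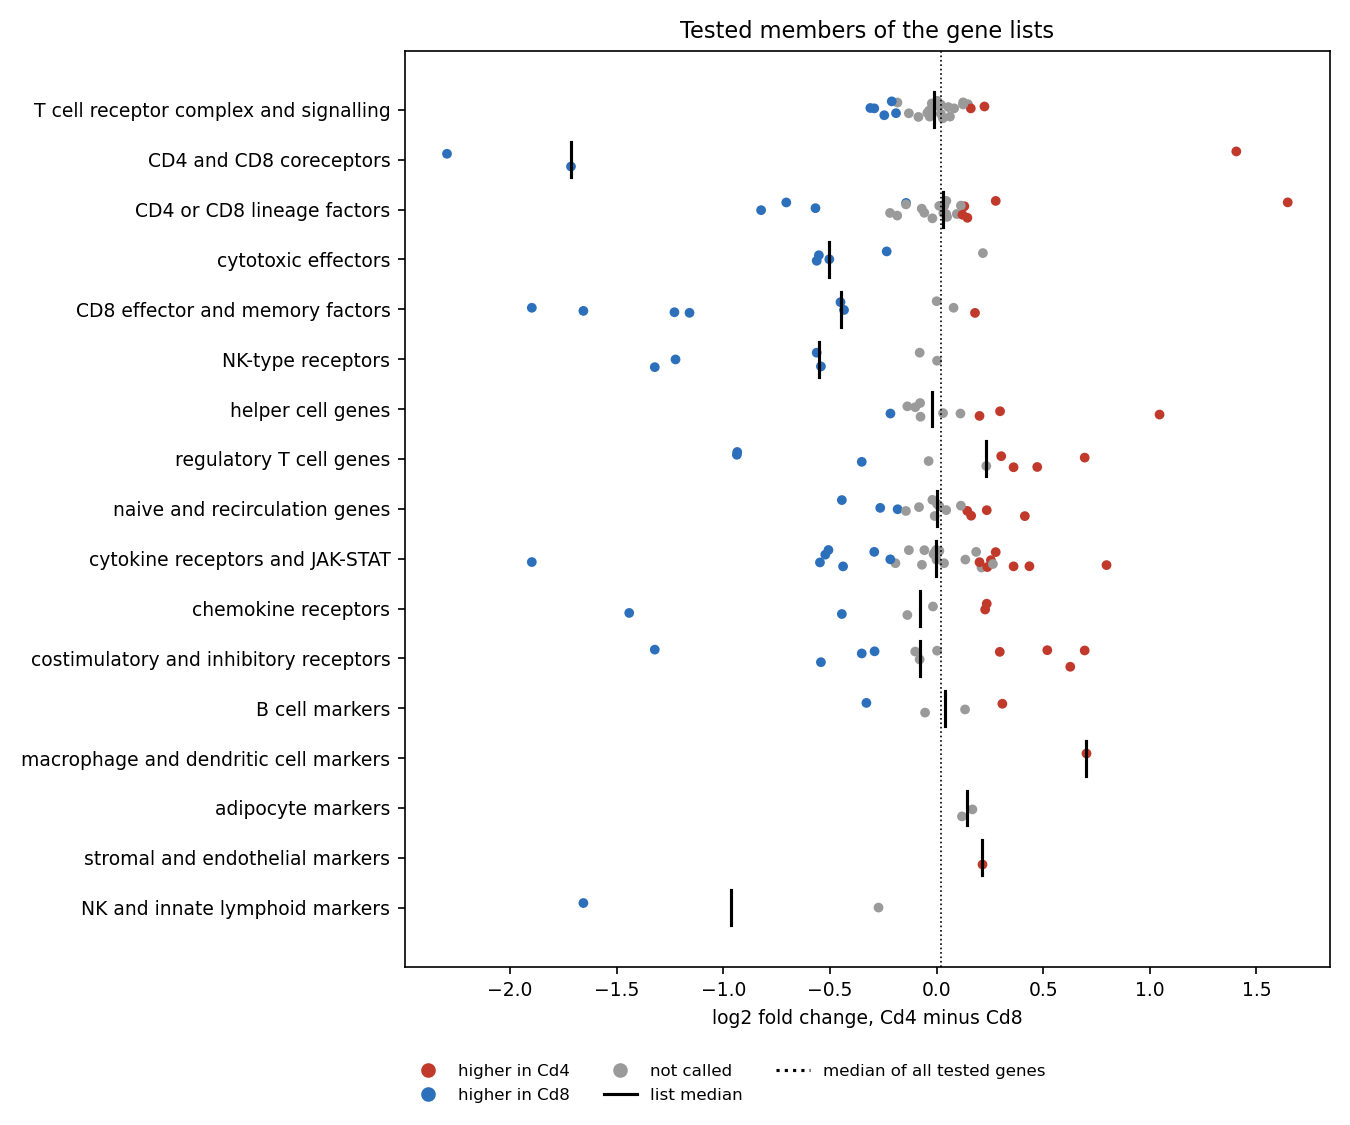
Log2 fold change (horizontal axis, CD4 minus CD8) of every tested gene of the 17 lists, 1 row per list, with called genes in red (higher in CD4) or blue (higher in CD8), list medians as bars and the median of all tested genes, 0.02, as a dotted line. Cytotoxic, effector and NK-type lists lie to the left, the coreceptors fall at both ends, and the receptor signalling list is bunched near 0.

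Naive and recirculation genes were all tested, 15 of 15, with 4 higher in CD4, 3 higher in CD8 and 8 not called, beside 8.01% and 11% of all genes. *Igfbp4* (0.41), the lymph node homing receptor *Ccr7* (0.24), *Foxp1* (0.16) and *Bach2* (0.14) were higher in CD4. Among those higher in CD8 were the gut homing receptor *Ccr9* (−0.44), which shares peaks with *Lztfl1* and *Slc6a20a*, and *Foxo1* (−0.18). *Ccr7* was not called over peaks near the gene start alone (0.09).

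Cytokine receptors and their JAK-STAT partners were divided evenly, with 28 of 34 tested, 7 higher in each cluster and 14 not called. The shares over all genes, for this list and the next ones, were 8.01% higher in CD4 and 11% higher in CD8. Higher in CD8 were *Il12rb1* (−0.55), *Stat4* (−0.52), *Il18r1* (−0.51), *Il21r* (−0.44), *Il12rb2* (−0.29), *Jak1* (−0.22) and *Il2rb*. *Tgfbr3*, *Ifngr2* (0.44), *Il2ra*, *Il4ra* (0.28), *Stat5a* (0.25), *Stat5b* (0.24) and *Il6ra* were higher in CD4. The alpha and beta chain genes of the IL-2 receptor ran in opposite directions, with *Il2ra* at 219 ± 57.5 against 158 ± 36.4 CPM and *Il2rb* at 23.4 ± 18.8 against 99.5 ± 18.1 CPM (CD4 against CD8, SD, n = 20). Of 15 chemokine receptors 6 were tested, with *Cxcr6* (−1.44) and *Ccr9* higher in CD8 and *Ccr7* and *Cx3cr1* (0.23) higher in CD4. Some peaks of *Cx3cr1* also count for *Csrnp1*, *Gorasp1*, *Ttc21a*, *Wdr48* or *Xirp1*, and all 3 of *Cxcr6* for *Fyco1*. The values of *Cxcr6* and *Fyco1* are hence not independent. Of 18 costimulatory and inhibitory receptors 11 were tested. *Ctla4*, *Cd200* (0.63), *Btla* (0.52) and *Cd28* (0.30) were higher in CD4, and *Cd160*, *Cd226*, *Tnfrsf9* and *Cd27* (−0.29) higher in CD8. Over peaks near the gene start alone, *Btla* (0.15) and *Il21r* (−0.11) were not called.

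Markers of other cell types had counts in both clusters. Over 12 B cell markers, CD4 libraries summed to 95.7 to 819 CPM and CD8 libraries to 315 to 819 CPM, higher in CD4 in 12 of 20 mice. Of these 4 were tested, with *Ebf1* (0.31) higher in CD4, *Pax5* (−0.33) higher in CD8 and *Cd79a* and *Bank1* not called. *Pax5* was not called under 5 alternatives. Macrophage and dendritic cell markers ran from 191 to 478 CPM in CD4 and from 139 to 276 CPM in CD8, higher in CD4 in 13 of 20, and the 1 of 12 tested, *Flt3* (0.70), was higher in CD4. Adipocyte markers ran from 147 to 478 CPM and 174 to 366 CPM (14 of 20), with 2 of 9 tested and none called. Stromal and endothelial markers had 383 CPM in the lowest CD4 and 381 CPM in the lowest CD8 library (higher in CD4 in 17 of 20 mice), with *Pecam1* (0.21) the 1 of 10 tested, at 463 CPM in CD4 and 413 CPM in CD8. No listed marker with a peak was at 0. The part of these cell types in the results was not tested. Without the nuclei that held a B cell gene count 955 genes were called, 882 of them among the 1501.

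The peaks that differed lay away from gene starts more often than tested peaks did as a whole. Within 2000 bases of a gene start were 65.5% of all tested peaks, 48.6% of those higher in CD4 and 29.7% of those higher in CD8. Peaks higher in CD8 also had less GC (52.0%, against 54.8% higher in CD4 and 56.4% overall), which moves with the distance from gene starts. A RUNX match was present in 37.0% of peaks higher in CD8, 26.5% of those higher in CD4 and 22.3% of all. Away from gene starts alone the 3 shares were 42.5% of 346, 36.4% of 132 and 34.5% of 2485 peaks. AP-1 matches were present there in 33.2%, 22.7% and 26.6%. Over all distances T-box matches were in 7.11%, 5.06% and 4.36%, TCF/LEF in 17.5%, 15.2% and 12.3%, GATA in 36.6%, 35.8% and 29.9%, ETS in 5.28%, 6.23% and 11.7%, KLF/SP in 20.9%, 39.3% and 42.9% and E-boxes in 49.2%, 47.5% and 47.1%. Away from gene starts alone T-box matches were in 7.23%, 4.55% and 5.51%, TCF/LEF in 17.3%, 19.7% and 15.9% and GATA in 39.9%, 45.5% and 36.9%. ETS was there in 4.34%, 4.55% and 5.47%, KLF/SP in 9.25%, 15.9% and 18.8% and E-boxes in 49.1%, 47.0% and 49.9%. There GATA and TCF/LEF matches were most frequent in peaks higher in CD4. These shares are descriptions of peaks of unequal length and position, with no test. The sets also differ by the count filter. A mean above the filter level in only 1 cluster was held by 341 of the 749 called peaks, against 1085 of all 7202 tested. The sets of called peaks were hence partly made by the choice of what was tested.

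The peaks that met the same naming rule were few, 3 higher in CD4 and 22 higher in CD8, since most peaks held fewer than 20 counts per library. Those higher in CD4 were over the *Myo10* start (chr15:25621943-25622954, 0.60), over the start of *E130208F15Rik* and *Sdhaf1* (0.49) and between genes near *Kmt2e* (0.33). Of the first 8 higher in CD8, 2 were in *Sfi1* (−0.84 and −0.64) and others in introns of *Cracr2a* (−0.84), *Sorl1* (−0.81) and *Mbp* (−0.71). The rest were within 2000 bases of the start of *Slc6a19* (−0.80), over the start of *Zyx* (−0.70), and between genes near *Tacc1* (−0.59). *Sfi1* lies in a stretch of chromosome 11 known for repeated sequence, where the placing of reads can be uncertain. Of the 13 tested peaks nearest to it 8 were higher in CD8, and the part of read placing in this was not tested. Peaks of the smallest p, chosen after their values were seen, had larger differences on fewer counts. Higher in CD8 were an intron peak of *Itgae* (chr11:73094220-73095024, −2.24, with 0, 7.83 and 20.3 CPM in CD4 and 47.1, 69.9 and 87.5 CPM in CD8), a peak between genes near *Fam241a* (−2.49), an intron peak of *Frmd4a* (−2.10) and the start of *Il2rb* (−1.81). Higher in CD4 were intron peaks of *Itgb3* (0.99), *Cytip* (0.95) and *Ets1* (0.94) and an exon peak of *Cd200r3* (1.01). All these peaks of smallest p had a mean above the filter level of 41.9 CPM only in the cluster where they were higher. Their differences were hence partly built into the choice of what was tested.

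Single genes could hold peaks of both directions. This was so for 9 of the 781 genes with at least 2 tested peaks, among them *Arhgef33*, *Cox10*, *Cytip*, *Ets1*, *Foxo1*, *Mbnl1*, *Prkce* and *Ubac2*. At *Ets1*, a factor of lymphocyte development, 1 intron peak was higher in CD8 (chr9:32709726-32710774, −0.52, edgeR adjusted p = 0.000174) and another higher in CD4 (chr9:32731762-32732303, 0.94, adjusted p = 1.86e-11), and the gene as a whole differed by 0.12. At *Foxo1*, a factor of T cell homing and quiescence, the start peak was higher in CD4 (0.27, adjusted p = 0.0419) and an intron peak higher in CD8 (chr3:52342904-52344180, −1.03, adjusted p = 3.56e-15), with −0.18 for the gene. At *Cytip* the 2 peaks differed by −0.42 and 0.95. The *Ets1* and *Cytip* peaks and the *Foxo1* intron peak had a mean above the filter level of 41.9 CPM in 1 cluster only. At the few genes with peaks of both directions, the gene-wide sum hid part of what the peaks showed.

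The design also asked whether treatment moved the difference between the clusters, or the balance of the 2 kinds of nuclei. In no gene did the CD4-CD8 difference change with treatment past the threshold (0% of 7904), either over the 6 treated groups, or in cold, or in CL, each against day0RT. The cold and CL tests share the day0RT mice. At an unadjusted p under 0.05 stood 288, 368 and 367 genes by edgeR and 76, 198 and 232 by DESeq2, which also called none. Each of these counts is under a share of 0.05 of the 7904 tested genes. The share that chance alone would give with counts this thin was not tested. All 3 tests have the 3 day0RT mice as their reference. Without day7C replicate 3, 1 gene, *Capzb*, passed over all groups (adjusted p = 0.0326, and 1 with all mice). The genes of smallest p were *Gas7*, *Atp8b4* and *March1* over all groups, *Ankrd22* (1.07, SE 0.308), *Ssh1* (0.98) and *Clmp* (0.91) in cold, and *March1* (−1.14), *Baz2a* (0.72) and *Atp8b4* (0.57) in CL. Within arms, the difference at *Cd4* was 1.31 in day0RT, 1.28 in cold and 1.63 in CL, and at *Cd8a* −2.07, −2.52 and −2.12. At *Zbtb7b* it was 1.73, 1.68 and 1.56, and at *Runx3* −0.85, −0.45 and −0.56. The change at *Runx3* in cold, 0.41 (SE 0.176, unadjusted p = 0.0211), had an edgeR adjusted p of 0.999.

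CD4 nuclei were 46.1% ± 3.55 of CD4 and CD8 nuclei in day0RT (SD, n = 3), 45.0% ± 4.83 in cold (SD, n = 9) and 44.3% ± 6.18 in CL (SD, n = 8). The mice of the 3 arms overlapped, from 42.3% to 49.4%, 36.8% to 51.5% and 32.7% to 51.5%. The difference from day0RT was −1.07 percentage points in cold (exact permutation test, two-sided, p = 0.755) and −1.86 in CL (exact permutation p = 0.703). Without day0RT replicate 2 the cold difference turned to 0.557 points (exact permutation p = 0.8), and without day1CL replicate 3 the CL difference was −0.204 points (exact permutation p = 0.967). The lowest share, 32.7%, was that of day1CL replicate 3, with 49 nuclei in all.

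**Figure D5:**
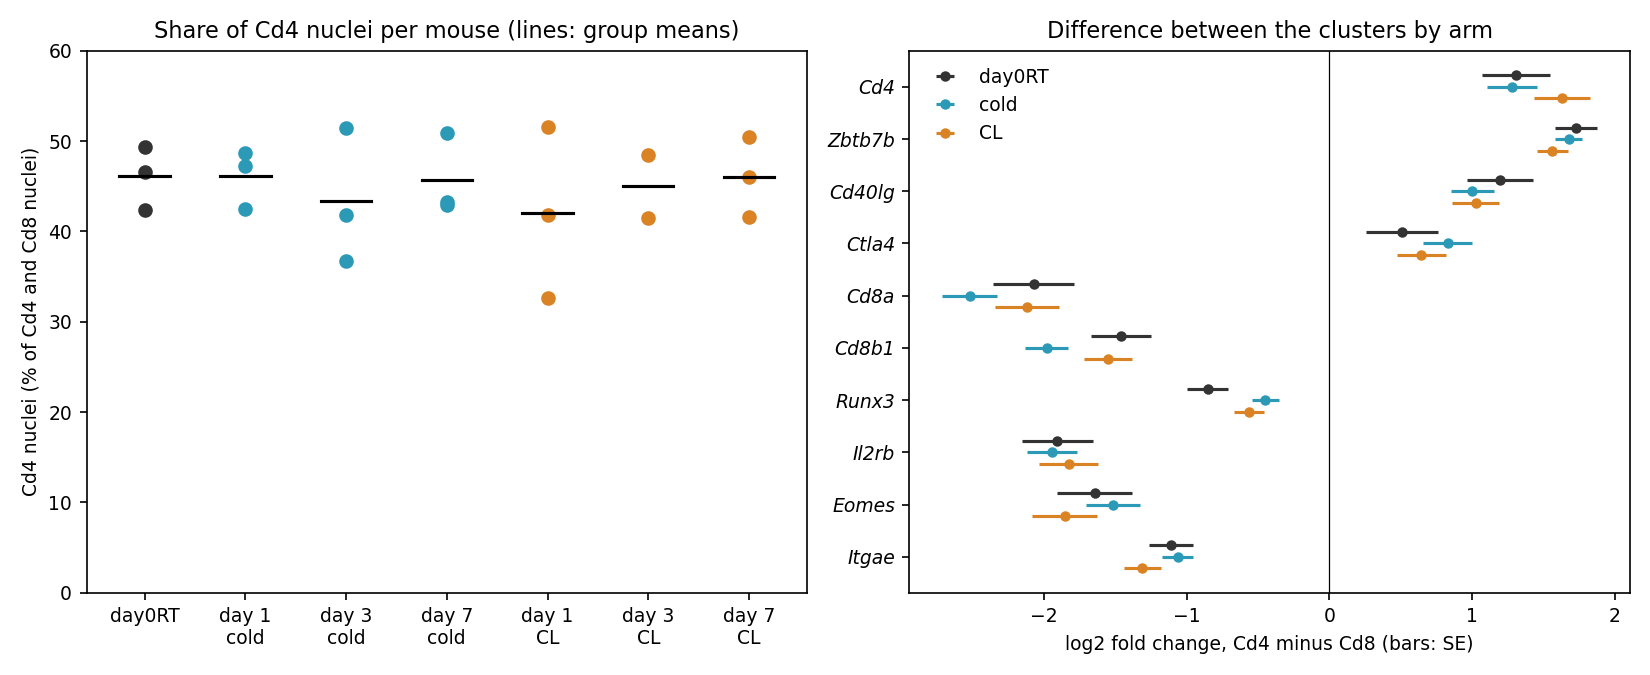
Left, share of CD4 among CD4 and CD8 nuclei (vertical axis, percent) for each mouse by group, with group means as lines, all between 32.7% and 51.5%. Right, log2 fold change between the clusters (horizontal axis, CD4 minus CD8, bars SE) of 10 genes in day0RT, cold and CL mice, each gene keeping its sign in all 3 arms.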

How the data were processed

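Single-nucleus ATAC-seq of iWAT was analysed from the matrix of nuclei by peaks that the authors deposited. By their methods, the authors aligned reads to mm10 with Bowtie2, removed duplicates per barcode and mitochondrial reads, called peaks with MACS2 per initial cluster, removed shallow nuclei and doublets (Scrublet), and clustered and annotated nuclei with Signac. The deposited values are counts of 0 or 1 (65588856 entries of 1, 145 stored zeros, none above 1), so 1 read and several count alike, which narrows differences where most nuclei are open. The mouse, group and cluster of each nucleus are the names in the deposited metadata, since the 4 sequenced samples are lanes that each hold nuclei of many mice. Of the nuclei used, CD4 had a median of 907 and CD8 of 1035.5 counts, and no doublets were removed beyond the authors' step.

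Counts were summed per mouse and cluster over 189598 peaks and over 17196 protein-coding genes of GENCODE vM21 with a peak (3.43% of peaks count for 2 or more genes). Of the 1501 called genes, 407 shared a peak with another gene. No read was aligned again. The files' peak starts count from 0, and those printed count from 1. The quasi-likelihood test of edgeR 4.0.16 under R 4.3.3 was used for genes and peaks, with TMM factors, a prior count of 2, the mouse as a block and filterByExpr by cluster (min.count 10, min.total.count 15, min.prop 0.7), two-sided, Benjamini-Hochberg over all features tested, threshold 0.05. Pairing comes from the mouse itself: both libraries of a pair are nuclei of 1 mouse. The replicates are separate mice. Shares used exact permutation tests in scipy 1.17.1. DESeq2 1.42.0 was the other tool, and tables and motifs were handled with the R package data.table (version 1.17.8), Python 3.11.15, pandas 2.3.3, numpy 2.4.6 and pysam 0.24.0. The edgeR fits of genes and of peaks were first run on simulated counts without differences between mice. DESeq2 was not run on them.

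Named genes were every gene of 17 lists, counted by list with values for the coreceptors, *Zbtb7b* and *Runx3* and the members of smallest p, plus the 12 genes and 8 peaks of largest change in each direction among those called, that averaged 20 or more counts a library and kept 1 direction in 90% of mice or more, and every tested peak of the coreceptor genes, *Zbtb7b* and *Runx3*. The comparison, the lists and the rule were chosen with earlier results of these data known. Alternatives were no mouse block, DESeq2, other scaling factors or none, no count filter, at least 30 nuclei, nuclei with at least 1000 counts, nuclei without a B cell gene count, thinning to equal totals, less open peaks, promoter peaks only, the third T cell cluster added to CD4 for shares, and leaving out each mouse or group. A few members of the lists are not reported here by name. Nuclei with an unshared barcode sequence were added as an alternative after the data were seen.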

Additional observations from a re-analysis of the deposited data

Results flagged for a closer look

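The values of the 5 lineage genes and of the CD4 share were checked for 1 mouse far from the others of its arm. Dixon's criterion at the 95% level was used, which chance meets in about 1 of 20 sets. The 22 sets tested each held the 9 cold or the 8 CL mice. Of these, 4 were picked out. In the CD4 libraries of CL mice, *Cd8a* was highest in day1CL replicate 2, at 31.7 CPM, and *Runx3* was lowest in day1CL replicate 3, at 0 CPM in a library of 16 nuclei. In the CD4 libraries of cold mice, *Cd8b1* was highest in day3C replicate 1, at 89.6 CPM in a library of 25 nuclei. In the CD8 libraries of cold mice, *Cd8b1* was highest in day3C replicate 2, at 186 CPM.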

How the results depend on the processing

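No alternative called a gene or peak in the opposite direction to a main call. Against 1501 genes called (main), fewer were called among nuclei with at least 1000 counts (970), among nuclei without a B cell gene count (955), over promoter peaks alone (323 of 5818 tested) and over the less open peaks (37 of 76 tested), each of which also tested fewer genes or nuclei. Against 749 peaks, the counts were 151 among nuclei with at least 1000 counts, 170 without a B cell gene count, 220 among nuclei with an unshared barcode sequence (chosen after seeing the data) and 6717 of 181991 with no filter on low counts. No peak could be tested among the less open peaks. Without the mouse as a replicate block 1486 genes and 760 peaks were called, and DESeq2 called 1157 and 586. Scaling by library totals alone moved the split of called peaks from 257 higher in CD4 and 492 in CD8 to 435 and 386, and of genes from 633 and 868 to 728 and 809. Leaving out 1 mouse gave 1340 to 1514 genes and 559 to 752 peaks, and leaving out 1 group 1218 to 1486 and 507 to 823. The treatment tests called 0 genes in all settings but 1, without day7C replicate 3 (1 gene). The change in CD4 share in cold turned from −1.07 to 0.557 points without day0RT replicate 2 (exact permutation p = 0.8), within −2.96 to 0.557 over mice left out, and in CL ran from −3.75 to −0.204. The sign turned for 4 named values: *Foxp1*, 0.16 over all peaks, over the less open peaks (−0.0273), *Bank1* among nuclei with at least 1000 counts (0.0067) and without day7C replicate 3 (0.0027, with −0.14 to 0.0027 over mice left out), *Adipoq*, 0.17 over all peaks, over promoter peaks (−0.0475), and the *Runx3* exon peak with no filter (−0.0063) and after thinning (−0.0589). The cause was not tested. Depth limits single mice, with 10452 gene counts in the smallest library and a median of 210812.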
